A study of Mus musculus with 6 samples.

Results

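The genes of the Wnt signaling pathway were examined in cultures of mouse adipose-derived stem cells (ADSCs) put through adipocyte differentiation. The genes were taken by annotation, not by their values. The deposited table lists KEGG pathways for each gene, and 64 of its 4864 complete rows carried the Wnt pathway. Rows that also belonged to insulin signaling, cell cycle, focal adhesion, actin cytoskeleton, endoplasmic reticulum protein processing, or extracellular matrix organization were left out, as was *Ppard*, which left 46 genes. These were 11 ligands and ligand-like agonists, 5 receptors, 8 inhibitors, 12 cytoplasmic components, 6 genes of the calcium branch, 2 nuclear effectors, and 2 reported target genes. The table analysed here holds genes up to a certain Ensembl number, so many pathway genes were not analysed.

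The ADSCs came from the subcutaneous fat of wild-type (WT) mice, which the study's methods describe as male C57BL/6J, and the age of the mice is not given in the sources used here. All cultures received the same adipogenic mixture of dexamethasone, insulin, 3-isobutyl-1-methylxanthine, indomethacin, and triiodothyronine. In 3 libraries (labelled Control, here vehicle) no further compound was named, and in the other 3 the differentiation took place with NJT-2, the PPARγ ligand under study. RNA was taken at the end of differentiation, from cells that the study's methods call mature adipocytes. The labels do not say whether the 3 libraries of a group came from separate mice, so the p-values measure the spread between these libraries, which may be technical.

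Wnt proteins are secreted ligands that bind Frizzled receptors together with a co-receptor, LRP5 or LRP6, or with a receptor such as ROR2. In the β-catenin branch, Dishevelled proteins then inhibit a complex built on Axin that otherwise marks β-catenin for destruction, and β-catenin enters the nucleus and acts with TCF/LEF factors. In fat, β-catenin-dependent Wnt signaling is known for holding precursors in the undifferentiated state, and secreted inhibitors counter it.

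The 6 libraries held 16093037 to 28929673 counts on the analysed genes, and 140671 to 312200 of these were on the 46 Wnt pathway genes. Vehicle replicate 1 and NJT-2 replicate 2 stood apart, with quality weights in voom of 0.141 and 0.130, so results are also given without both. Vehicle replicate 3 also had a low weight, 0.438, and the remaining libraries were between 4.09 and 6.93. Of the fixed adipocyte markers, 10 of 15 were in the table, among them *Adipoq* and *Cd36*. Their summed FPKM (fragments per kilobase, scaled to the library total) was between 82.5 and 106.0 in the vehicle libraries and reached 1720, 489, and 1380 in NJT-2 replicates 1, 2, and 3. With vehicle, *Lpl* at 55.14 to 78.79 made up most of this sum, and *Adipoq* was at 0.38, 0.50, and 0.39. How far the vehicle cultures had differentiated was not tested. The summed FPKM of 5 precursor and fibroblast markers was 227 in vehicle replicate 1, 781 and 999 in the other vehicle libraries, and between 444 and 488 with NJT-2. *Col1a1* made up most of this sum, and by log2 fold change all 5 markers lay below 0 (median -1.35), with *Pi16* called lower at -3.83 (adjusted p = 0.0270 in edgeR). The summed FPKM of 5 macrophage markers was at most 13 with vehicle and at least 31.9 with NJT-2, and 1 of them, *Adgre1*, was called higher. In the endothelial list 2 of 8 genes were in the table, with a summed FPKM of 0.4 to 2.42 over all libraries, and in the smooth muscle and pericyte list 2 of 6, with 11.3 to 13.8 with vehicle and 2.72 to 4.04 with NJT-2. None of these markers was at 0 in all libraries. In bulk RNA, fewer cells of a type and less RNA per cell cannot be told apart, and the part of the cell mixture in the Wnt pathway values was not tested.

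**Figure D1:**
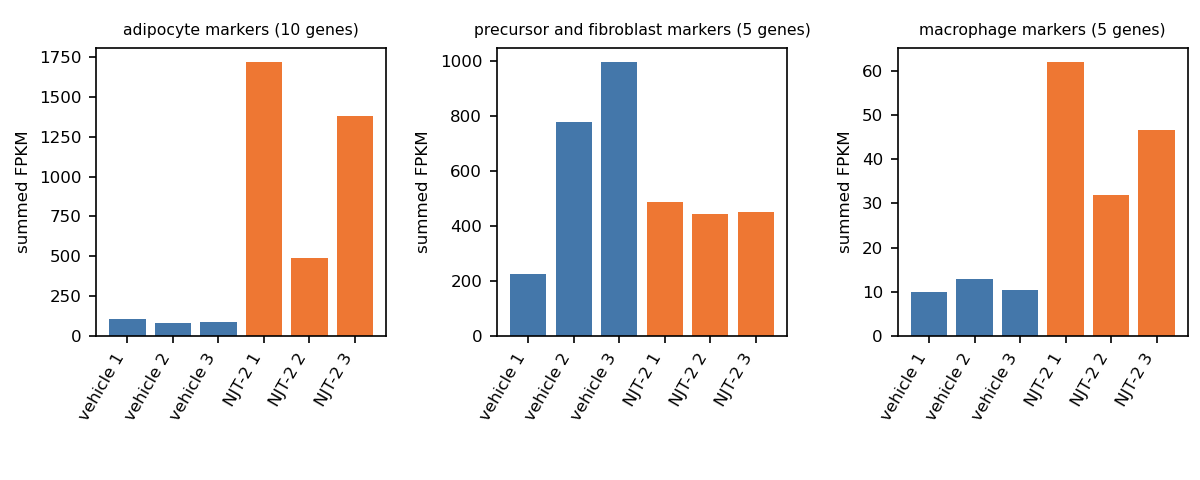
Summed FPKM of the fixed marker genes found in the table, as 1 bar for each library (blue, vehicle; orange, NJT-2), on linear axes that differ between panels. The adipocyte sum is at least 489 in the NJT-2 libraries and at most 106.0 in the vehicle libraries, while the precursor and fibroblast sum is lowest in vehicle replicate 1.

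The promoters were searched for the core of the TCF/LEF site, the element through which β-catenin acts, written as CTTTGAA or CTTTGAT on either strand. The set of RefSeq promoters used here (250 bases before to 50 bases after a transcript start, build GRCm38.p6) covered 27 of the 46 genes, with 35 start sites in all. The core was in 2 of these 35 windows (5.71%), beside 8.65% of all 32851 windows. The matches were in *Wnt11*, a ligand gene described below, and in *Cacybp*, which encodes a protein of a β-catenin degradation complex. They are printed with the promoter of *Nkd2*, a reported Wnt target whose groups did not overlap and which holds no match. Bases run 5′ to 3′ along the gene's strand, and capitals mark the core, read on the opposite strand in *Wnt11*.

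*Wnt11*, chr7:98834862-98835161, plus strand: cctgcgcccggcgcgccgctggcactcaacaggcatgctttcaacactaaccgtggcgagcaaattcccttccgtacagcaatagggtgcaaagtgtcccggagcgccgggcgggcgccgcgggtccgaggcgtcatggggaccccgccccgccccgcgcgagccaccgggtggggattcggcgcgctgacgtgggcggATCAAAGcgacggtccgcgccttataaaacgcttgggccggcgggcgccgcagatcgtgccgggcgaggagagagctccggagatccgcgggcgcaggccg
*Cacybp*, chr1:160212843-160213142, minus strand: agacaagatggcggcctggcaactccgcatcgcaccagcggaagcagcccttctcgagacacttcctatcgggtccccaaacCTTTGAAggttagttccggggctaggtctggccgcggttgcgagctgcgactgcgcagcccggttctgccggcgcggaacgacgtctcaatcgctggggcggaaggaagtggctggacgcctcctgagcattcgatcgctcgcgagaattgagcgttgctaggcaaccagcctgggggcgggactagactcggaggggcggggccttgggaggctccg
*Nkd2*, chr13:73847582-73847881, minus strand: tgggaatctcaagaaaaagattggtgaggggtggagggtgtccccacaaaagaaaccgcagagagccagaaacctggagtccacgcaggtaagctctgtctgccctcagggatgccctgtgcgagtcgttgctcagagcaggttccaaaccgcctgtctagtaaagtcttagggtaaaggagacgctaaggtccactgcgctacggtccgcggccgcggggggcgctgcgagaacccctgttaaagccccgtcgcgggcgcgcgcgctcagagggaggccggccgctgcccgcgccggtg

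A match is a description of these letters and not a measured binding site.

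Levels spread over a wide range (the plot of levels by library). By mean FPKM over the 6 libraries, *Serpinf1* was highest at 551, followed by *Fosl1* at 38.7, *Csnk1a1* at 34.1, and *Csnk2b* at 31.8. The mean of *Fosl1* was set by 1 library. Of the 46 genes, 34 had a mean FPKM of at least 0.5 and were tested, and 12 were below it, among them 6 of the 11 ligands. edgeR's quasi-likelihood test compared the counts of NJT-2 with those of vehicle over the 3705 genes of the table above this limit.

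**Figure D2:**
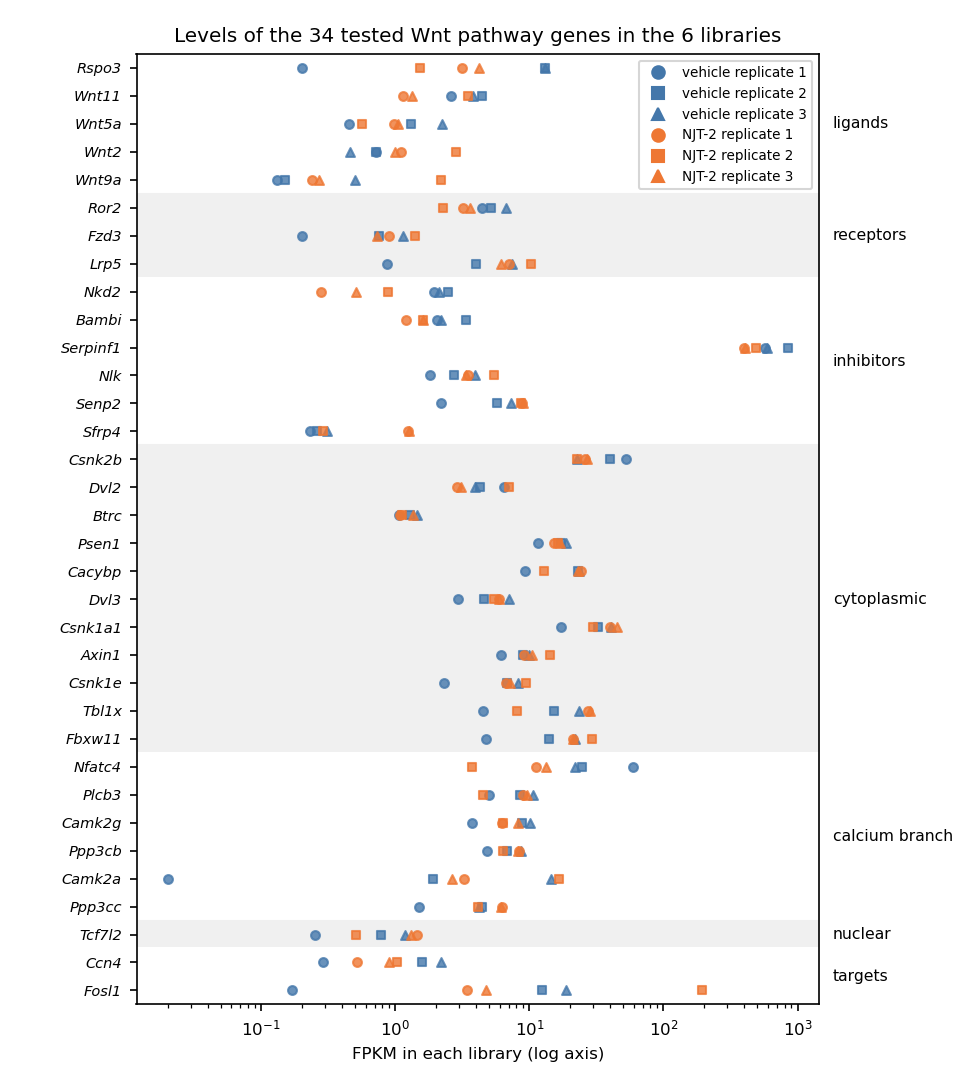
FPKM of each of the 34 tested Wnt pathway genes (rows, grouped by role) in each of the 6 libraries, on a log axis. Color gives the group and marker shape the replicate. *Serpinf1* lies between 397 and 849, far above the other members, and vehicle replicate 1 is the lowest library for 24 of the 34 genes.

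With the limits of 0.05 on the adjusted p and of 1 on the size of the log2 fold change, none of the 34 genes was called by edgeR, where 0.702% of all tested genes were. At an unadjusted p under 0.05 there were 5 of the 34 (14.7%), near the 17.8% of all tested genes. These 5 were *Nkd2*, *Ror2*, *Nfatc4*, *Bambi*, and *Serpinf1*, and their 3 NJT-2 values all lay below their 3 vehicle values. A lack of overlap in this direction was found for 11.5% of all tested genes. In the opposite direction, *Wnt2* and *Senp2* had NJT-2 values that lay above every vehicle value, 5.88% of the 34 genes beside 14.4% of all tested genes. Overlap was judged on FPKM. DESeq2, the tool of the study's methods, called 2 of the 34, *Nkd2* and *Nfatc4*, both lower, where it called 7.80% of all tested genes.

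The median log2 fold change of the 34 genes was 0.08, with a median of 0.02 over all tested genes, and 19 were above and 15 below 0. By role, the median was -0.70 for the 5 tested ligands, 0.51 for the 3 tested receptors, -0.19 for the 6 tested inhibitors, 0.13 for the 11 tested cytoplasmic components, and -0.09 for the 6 calcium branch genes. Without vehicle replicate 1 and NJT-2 replicate 2, the receptor median turned to -0.22, and the medians were -0.82 for ligands, -0.41 for inhibitors, 0.03 for cytoplasmic components, and -0.22 for the calcium branch. These 5 roles each held genes on both sides of 0, and only the 34 genes that passed the limit on low values enter these numbers.

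Among the ligands, *Wnt11*, which mostly signals without β-catenin, had an FPKM of 2.62, 4.41, and 3.77 in vehicle replicates 1 to 3 and of 1.14, 3.48, and 1.33 in NJT-2 replicates 1 to 3. NJT-2 replicates 1 and 3 were below every vehicle library, and NJT-2 replicate 2 lay within the vehicle range. The log2 fold change was -0.97 with a standard error (SE) of 0.53, and the adjusted p was 0.338 in edgeR. *Wnt11* (ENSMUSG00000015957) lies on chromosome 7 of GRCm38 from 98835112 to 98853811, and 1 of its 2 promoter windows is printed above. The other window, from 98838595 to 98838894, held no match.

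*Rspo3*, an R-spondin that binds LGR receptors and keeps Frizzled receptors at the cell surface, had an FPKM of 0.20, 13.17, and 13.01 with vehicle and of 3.16, 1.52, and 4.23 with NJT-2. The groups overlapped through vehicle replicate 1 alone. Its log2 fold change was -1.55 (SE 1.05, adjusted p = 0.412 in edgeR), and without vehicle replicate 1 it was -2.17 (SE 0.40, adjusted p = 0.118). *Wnt5a*, the main ligand of ROR2, had an FPKM of 0.45, 1.32, and 2.24 with vehicle and of 0.97, 0.56, and 1.05 with NJT-2, and the groups overlapped (log2 fold change -0.70, SE 0.52).

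*Wnt2*, a ligand known for the β-catenin branch, had an FPKM of 0.72, 0.72, and 0.46 with vehicle and of 1.1, 2.84, and 1.0 with NJT-2. In FPKM every NJT-2 library was above every vehicle library, and NJT-2 replicate 2 was 2.58 times the highest of the others. FPKM does not carry the normalization factors of edgeR (TMM), which were lowest in vehicle replicate 1, at 0.7697. The separation therefore need not hold on the scale that edgeR uses. In edgeR its log2 fold change of 1.17 (SE 0.70; adjusted p = 0.370) went to 0.45 without NJT-2 replicate 2. *Wnt9a* also stood out in that library, with an FPKM of 2.2 beside 0.13 to 0.50 in the other 5 libraries. Its log2 fold change was 1.78 (SE 1.06) with all libraries and -0.16 without NJT-2 replicate 2, so that its direction rested on 1 library.

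The other 6 ligands were at very low levels. *Wnt3* had 0 to 13 counts in a library, *Wnt9b* 0 to 16, *Wnt1* 0 to 11, *Wnt10b* 0 to 23, and *Wnt7b* 0 to 133. *Wnt10b*, known as a ligand that restrains fat formation, had counts of 8, 23, and 6 in the vehicle group and 0, 12, and 16 with NJT-2. At these counts no difference was detectable. *Wnt8a* had 20 counts in NJT-2 replicate 2 and 0 in each of the other libraries.

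Among the receptors, *Ror2*, a receptor tyrosine kinase-like protein that binds Wnt ligands, had an FPKM of 4.41, 5.14, and 6.69 with vehicle and of 3.18, 2.25, and 3.61 with NJT-2. Every NJT-2 library was below every vehicle library, with means of 3.01 ± 0.695 and 5.41 ± 1.16 (SD, n = 3 each). In edgeR the difference was -1.02 on the log2 scale (SE 0.33), and its p of 0.0148 was 0.200 after adjustment. Over its 17 alternatives, the log2 fold change of *Ror2* was between -1.27 and -0.65. The gene (ENSMUSG00000021464) lies on chromosome 13 from 53109312 to 53286124.

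*Lrp5*, the co-receptor gene, had an FPKM of 0.87, 4.0, and 7.44 with vehicle and of 7.03, 10.28, and 6.11 with NJT-2. The groups overlapped, and vehicle replicate 1 was far below the others (log2 fold change 0.93, SE 0.59, adjusted p = 0.389 in edgeR). With both libraries that stood apart left out, its log2 fold change was 0.20. *Fzd3*, a Frizzled gene, had an FPKM of 0.20, 0.76, and 1.14 with vehicle and of 0.90, 1.40, and 0.73 with NJT-2 (log2 fold change 0.51, SE 0.55), and without both libraries its log2 fold change was -0.22.

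A pair of receptors lay below the expression limit. *Fzd6* had counts of 0, 118, and 121 in the vehicle group and 188, 208, and 140 with NJT-2, with an FPKM of at most 0.35 with vehicle and at least 0.41 with NJT-2. *Lgr5*, a receptor of R-spondins and a reported Wnt target, had counts of 0, 15, and 20 in the vehicle group and 12, 57, and 19 with NJT-2. When genes under the limit were fitted as well, the adjusted p was 0.610 for *Fzd6* and 0.627 for *Lgr5* (edgeR).

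The inhibitors held the gene with the smallest p of the 34. *Nkd2*, which encodes a Dishevelled-binding inhibitor and is itself reported as a Wnt target in other systems, had an FPKM of 1.95, 2.46, and 2.11 with vehicle and of 0.28, 0.88, and 0.51 with NJT-2. Its highest NJT-2 library was below its lowest vehicle library, and the means were 2.17 ± 0.261 and 0.557 ± 0.303 (SD, n = 3 each), 3.90 times higher with vehicle. In counts these were 547, 1058, and 727 with vehicle and 98, 298, and 172 with NJT-2.

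For *Nkd2*, edgeR's quasi-likelihood test gave a log2 fold change of -2.12 (SE 0.56) and a p of 0.00598, or 0.150 after Benjamini-Hochberg adjustment. DESeq2 gave -2.09 and an adjusted p of 0.00985. With both libraries that stood apart left out, it was -2.53 (adjusted p = 0.0124, edgeR). The gene (ENSMUSG00000021567) lies on chromosome 13 from 73818534 to 73847631.

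*Serpinf1* encodes pigment epithelium-derived factor, a secreted protein that KEGG lists as an inhibitor at the LRP co-receptors and that fat cells are known to release. Its FPKM was 570, 849, and 595 with vehicle and 397, 494, and 403 with NJT-2. All NJT-2 libraries lay below all vehicle libraries, with means of 431 ± 54.0 and 671 ± 154 (SD, n = 3 each). In edgeR the log2 fold change stood at -0.81 (SE 0.35, unadjusted p = 0.0499, adjusted p = 0.281). The gene (ENSMUSG00000000753) lies on chromosome 11 from 75409769 to 75422701. *Bambi*, a membrane pseudoreceptor of the TGF-β family that KEGG also lists in the Wnt pathway, had an FPKM of 2.03, 3.39, and 2.18 with vehicle and of 1.20, 1.61, and 1.6 with NJT-2, again without overlap. Its log2 fold change was -0.95 (SE 0.39, unadjusted p = 0.0413, adjusted p = 0.269).

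*Sfrp4*, a secreted Frizzled-related protein gene, was on the opposite side. Its FPKM was 0.23, 0.26, and 0.31 with vehicle and 1.24, 0.29, and 1.27 with NJT-2, so that NJT-2 replicates 1 and 3 were above every vehicle library and NJT-2 replicate 2 within their range. The log2 fold change was 1.59 (SE 0.69, adjusted p = 0.284 in edgeR) and, without NJT-2 replicate 2, 2.01 (adjusted p = 0.0876). In the adipocyte markers, too, NJT-2 replicate 2 was the lowest NJT-2 library.

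*Senp2*, a SUMO protease gene, had an FPKM of 2.21, 5.71, and 7.26 with vehicle and of 8.75, 8.72, and 8.90 with NJT-2, with no overlap and a wide spread only in the vehicle group (edgeR log2 fold change 0.72, SE 0.35, adjusted p = 0.302). *Nlk*, a kinase that acts on TCF/LEF factors, overlapped between the groups, with 1.81 to 3.94 with vehicle and 3.35 to 5.48 with NJT-2 (log2 fold change 0.43, SE 0.37). The secreted inhibitors *Sfrp5* and *Wif1* were near the limit of detection, *Sfrp5* with counts of 0, 14, and 0 in the vehicle group and 3, 4, and 0 with NJT-2, and *Wif1* with 9 counts in NJT-2 replicate 2 and 0 elsewhere.

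**Figure D3:**
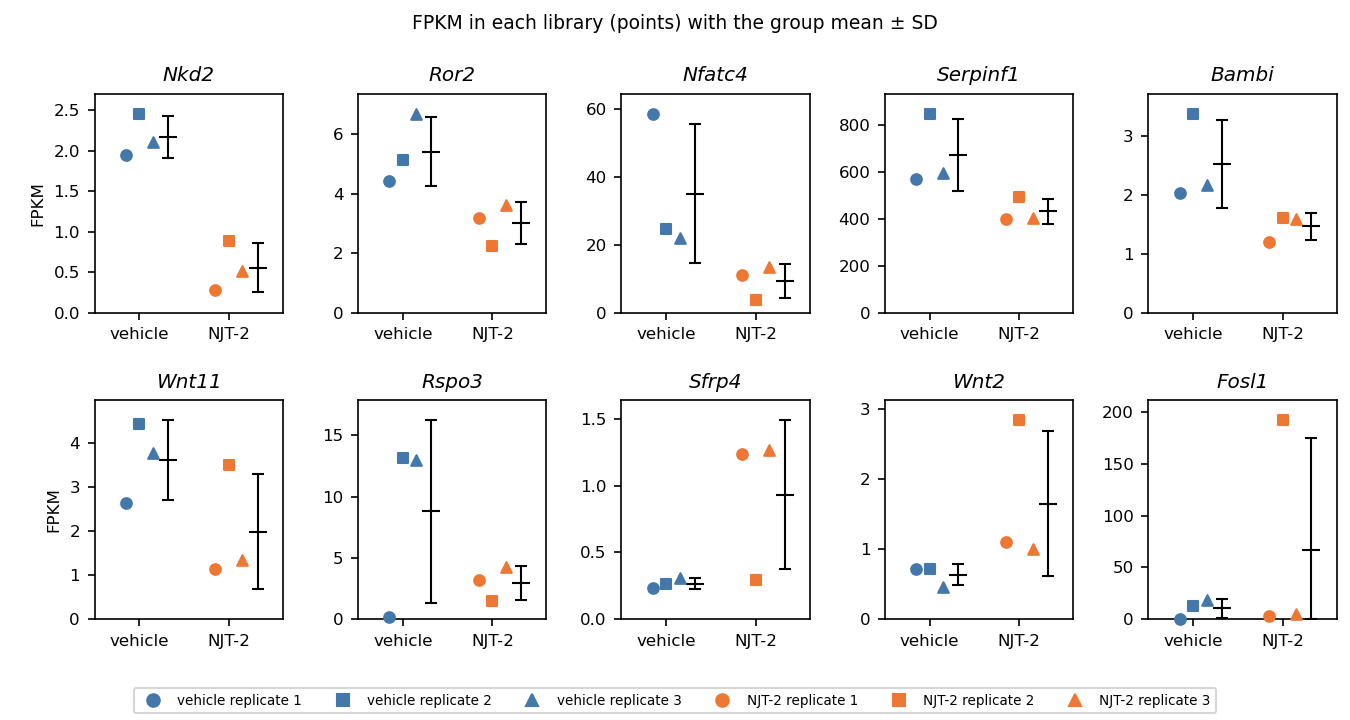
FPKM of 10 Wnt pathway genes in each library (points; color gives the group and marker shape the replicate), with the group mean ± SD (n = 3) in black, drawn no lower than 0, on linear axes that differ between panels. In the upper row all NJT-2 points lie below all vehicle points, and in the lower row *Fosl1* at 193 and *Wnt2* at 2.84 show the distance of NJT-2 replicate 2.

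The cytoplasmic components were closer together. For the 11 tested, log2 fold changes were between -0.91 for *Csnk2b*, the regulatory subunit of casein kinase II, and 0.78 for *Fbxw11*, an F-box protein that recognizes β-catenin. Without both libraries that stood apart these were -0.25 and 0.23. None of the 11 was without overlap between the groups or had an unadjusted p under 0.05. The Dishevelled genes had log2 fold changes of -0.43 for *Dvl2* (SE 0.55) and 0.13 for *Dvl3* (SE 0.31), which turned to 0.12 and -0.01 without vehicle replicate 1. Without NJT-2 replicate 2 they were -1.04 and 0.13, and without both libraries -0.46 and 0.03. The scaffold gene *Axin1* was at 0.31 (SE 0.32). *Csnk1a1*, the kinase that primes β-catenin for destruction, had an FPKM of 17.11, 32.52, and 40.32 with vehicle and of 40.15, 29.57, and 44.90 with NJT-2. At 0.23 (SE 0.32), its log2 fold change was within the replicate error.

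*Axin2*, a widely used readout of β-catenin signaling and a part of the same complex, was counted 15, 63, and 105 times in the vehicle libraries and 99, 187, and 135 times with NJT-2. Its FPKM was 0.04 to 0.26 with vehicle and 0.25 to 0.48 with NJT-2, under the expression limit. The values of the groups touched, as NJT-2 replicate 1 was below vehicle replicate 3. When genes under the limit were fitted as well, edgeR gave it a log2 fold change of 1.22 with an adjusted p of 0.467.

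In the calcium branch, *Nfatc4*, a transcription factor activated by calcineurin, had the lowest log2 fold change of the 34 genes. Its FPKM was 58.79, 24.71, and 21.93 with vehicle and 11.17, 3.75, and 13.36 with NJT-2. The groups did not overlap, and the libraries at the extremes, vehicle replicate 1 and NJT-2 replicate 2, were the ones that stood apart. The log2 fold change was -2.29 (SE 0.70, adjusted p = 0.188 in edgeR, adjusted p = 0.0150 in DESeq2). Without both libraries it was -0.93 (SE 0.18, adjusted p = 0.0246 in edgeR), under the limit on size. The gene (ENSMUSG00000023411) lies on chromosome 14 from 55823144 to 55833943.

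The calcineurin subunit genes *Ppp3cb* and *Ppp3cc* had log2 fold changes of 0.02 (SE 0.28) and 0.62 (SE 0.39), and both overlapped between the groups. *Plcb3* and *Camk2g*, a phospholipase and a calmodulin-dependent kinase gene, were at -0.21 each. *Camk2a* varied most within the groups among these 6 genes, with an FPKM of 0.02, 1.9, and 14.49 with vehicle and of 3.27, 16.69, and 2.64 with NJT-2, and the SE of its log2 fold change, 0.57, was 1.51. Without both libraries that stood apart, that value was -1.46.

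Of the nuclear effectors, *Tcf7l2*, the TCF factor known in fat cells, had an FPKM of 0.25, 0.78, and 1.18 with vehicle and of 1.44, 0.51, and 1.32 with NJT-2. NJT-2 replicates 1 and 3 were above every vehicle library and NJT-2 replicate 2 was not (log2 fold change 0.50, SE 0.57, adjusted p = 0.623 in edgeR). *Tcf7* had counts of 16, 40, and 50 in the vehicle group and 21, 16, and 26 with NJT-2 and lay under the expression limit. In the fit with quality weights, whose vehicle side rested largely on replicate 2, *Tcf7l2* was at 0.74 (adjusted p = 0.00879 in voom), under the limit on size. When 1 library was left out it ran from 0.13 to 0.87 in edgeR.

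Of the reported targets, *Fosl1*, a subunit of the AP-1 transcription factor, had an FPKM of 0.17, 12.41, and 18.91 with vehicle and of 3.44, 193, and 4.75 with NJT-2. NJT-2 replicate 2 was 10.2 times the highest of the other libraries, and NJT-2 replicates 1 and 3 were below vehicle replicates 2 and 3. The log2 fold change was 2.79 (SE 1.79) with all libraries and -1.93 (SE 0.29, adjusted p = 0.0118 in edgeR) without vehicle replicate 1 and NJT-2 replicate 2. DESeq2 gave no p for *Fosl1*. *Ccn4*, which encodes a secreted matricellular protein, had an FPKM of 0.29, 1.57, and 2.18 with vehicle and of 0.52, 1.03, and 0.89 with NJT-2, with overlap through vehicle replicate 1 (log2 fold change -0.73, SE 0.65).

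The library at the extreme of each gene was counted. Vehicle replicate 1 was the lowest of the 6 libraries for 24 of the 34 genes (70.6%), and for 51.1% of all tested genes. NJT-2 replicate 2 was the highest for 11 of the 34 (32.4%), and for 24.4% of all tested genes. The deviation of each library from the mean of all also followed transcript length, and not in these libraries alone. Its Spearman correlation with length across genes, which are not independent, was -0.424, -0.426, and 0.398 in vehicle replicates 1 to 3 and 0.177, 0.320, and 0.249 in NJT-2 replicates 1 to 3. With this trend taken out, edgeR called none of the 34 genes and 0.783% of all tested genes, and 5 of the 34 (14.7%) had an unadjusted p under 0.05, beside 19.1% of all. These 5 were *Ror2*, *Nkd2*, *Wnt5a*, *Nfatc4*, and *Bambi*. *Serpinf1* was no longer among them, with a log2 fold change of -0.56 (adjusted p = 0.325 in edgeR). In this fit the median log2 fold change of the 34 was -0.08, as was that of all tested genes.

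Without vehicle replicate 1 and NJT-2 replicate 2, a fit chosen after seeing the data that leaves 2 libraries a group, edgeR called 5 of the 34 genes (14.7%), where it called 13.0% of all tested genes. The 2 libraries left in each group were the pairs closest to each other, above all NJT-2 replicates 1 and 3. The standard errors and adjusted p-values of this fit reflect the spread of those pairs alone. *Rspo3* fell by 1.83 on the log2 scale (adjusted p = 0.00703), *Wnt11* fell by 1.72 (adjusted p = 0.00955), and *Nkd2* and *Fosl1* also fell, with the values given above. *Sfrp4* rose by 2.15 (adjusted p = 0.0174). With libraries weighted by their quality instead (voom, also chosen after seeing the data), 9 of the 34 (26.5%) were called beside 19.6% of all tested genes, and these included the same 5 genes as well as *Serpinf1*, *Ccn4*, *Nfatc4*, and *Bambi*, each lower with NJT-2. In both of these fits *Fosl1* was lower with NJT-2, the reverse of its direction with 6 libraries. In the voom fit most of the vehicle weight lay on vehicle replicate 2 (4.09, beside 0.141 and 0.438 in replicates 1 and 3). Its adjusted p-values and calls therefore rest largely on that library for the vehicle side.

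**Figure D4:**
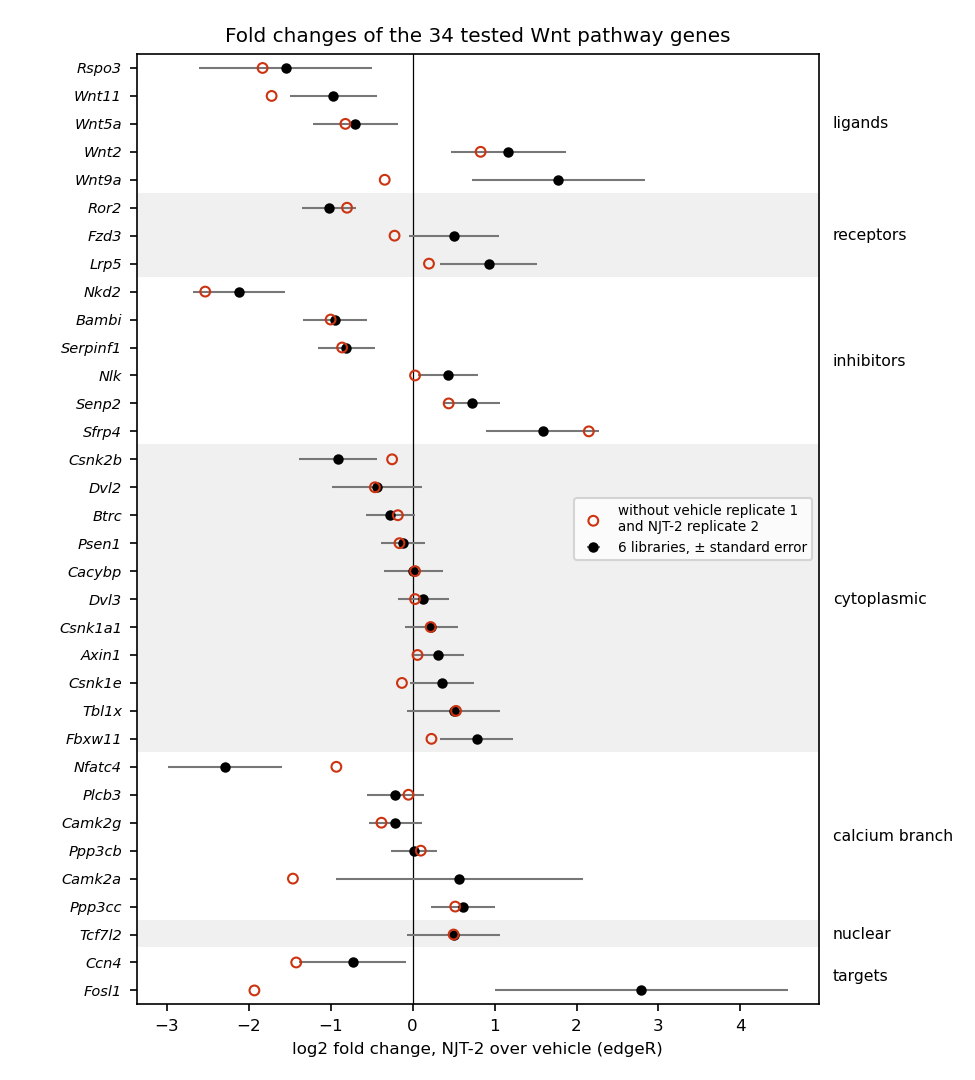
Log2 fold change of NJT-2 over vehicle from edgeR for the 34 tested Wnt pathway genes, grouped by role. Black points and bars give the 6 libraries with the SE, and red circles give the fit without vehicle replicate 1 and NJT-2 replicate 2. *Nkd2* stays below -2 in both, while *Fosl1* moves from 2.79 to -1.93 and *Wnt9a* from 1.78 to -0.34.

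The other genes of the fixed Wnt lists that were in the table numbered 47, with 18 of them carrying the pathway annotation, and 41 were tested. Their median log2 fold change was 0.48, with 29 above 0, and it was -0.03, with 19 above 0, without both libraries that stood apart. None was called by edgeR, beside 0.702% of all tested genes, and 3 (7.32%) had an unadjusted p under 0.05, beside 17.8%. DESeq2 called 2, beside 7.80% of all tested genes. These 2 were *Birc5*, a cell division gene reported as a Wnt target (log2 fold change -2.24 in edgeR), and *Chp1*, a calcineurin-like calcium-binding protein gene (1.45). *Ctnnb1*, which encodes β-catenin, had a mean FPKM of 62.4 ± 40.4 in the vehicle libraries and 76.4 ± 15.2 in the treated libraries (mean ± SD, n = 3 each), and its log2 fold change was 0.25 ± 0.47 (SE). The genes of its destruction complex, *Gsk3b* and *Apc*, had log2 fold changes of 1.64 (SE 0.64, adjusted p = 0.254 in edgeR) and 1.04 (SE 0.65, adjusted p = 0.387), and the target *Myc* had 0.53 (SE 0.67). Without both libraries that stood apart, these were 0.53 for *Gsk3b*, 0.37 for *Apc*, and -0.59 for *Myc*, and without NJT-2 replicate 2 alone *Myc* was at -0.15. *Ctnnb1* was at -0.16 without vehicle replicate 1. Of 16 reported Wnt targets in the table, 10 were tested, with 5 above and 5 below 0 and a median log2 fold change of -0.09. These values depended on the libraries that stood apart. Without NJT-2 replicate 2, 8 of the 10 targets were below 0 (median -1.06), and without both libraries all 10 were, with a median of -1.26 beside -0.03 over all tested genes, and edgeR called 4 of the 10 where it called 13.0% of all tested genes. The targets include *Nkd2*, *Fosl1*, and *Ccn4* described above, and the direction of 1 list is a description with no test. Genes under the expression limit do not enter these numbers, and they lay on both sides of 0. When they were fitted as well with all 6 libraries, edgeR gave 1.22 for *Axin2* and 1.46 for *Lgr5*. In the same fit *Bmp4* was at -2.19, *Fgf9* at -0.35, and *Cdx1* at -2.58, with adjusted p-values of 0.263 or more throughout.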

How the data were processed

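RNA of 6 libraries was sequenced. Per the labels, the processing notes name cutadapt 1.9, HISAT2 2.2.1, StringTie 2.1.6, and the build GRCm38. Which tool counted the reads, on which annotation and whether by strand, is not given in the sources used here. The authors deposited raw counts per gene, not normalized. The authors also deposited FPKM values, scaled by gene length and library total. Of 4865 lines, 1 was incomplete and left out.

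Counts were fitted in R 4.3.3 with edgeR 4.0.16 (TMM factors, quasi-likelihood test, no block) over genes whose mean FPKM reached 0.5, with Benjamini-Hochberg adjustment over all of them. The standard error is the log2 fold change divided by the square root of F. DESeq2 1.42.0 and limma 3.58.1 served as alternatives, with other factors, filters, and pseudocounts, a replicate block, and leaving out libraries. The method was tested on simulated counts that held no library standing apart and no trend with transcript length, so that test does not cover these features of the data. No library pair agreed within sampling noise. A chi-square per gene between the counts of 2 libraries was 56.6 for NJT-2 replicates 1 and 3. It was 458 for vehicle replicates 2 and 3 and 884 to 2830 for the other pairs. At a common biological coefficient of variation of 0.504, replicate spread and not counting error limits the precision.

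All ligands, receptors, inhibitors, and nuclear effectors were named, with others at an unadjusted p under 0.05 or without overlap. The remaining members were named after their values were seen. Members and lists were chosen with earlier results of these data known. Transcript lengths came from GENCODE M21.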

Additional observations from a re-analysis of the deposited data

How the results depend on the processing

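The number of Wnt pathway genes called was 0 in 14 of the alternatives to the 6-library edgeR fit, among them the fit with the replicate number as a block (replicate block), other factors and filters, limma on log2(FPKM + 1), and each fit without 1 library. Few genes of the whole table were called in those 14 fits. The fits without 1 library called 0 to 4 genes, except 75 without NJT-2 replicate 2, and the others called 28 to 57. A 0 among 34 genes therefore says little about the members. The number of Wnt pathway genes called was 2 in DESeq2, 5 without both vehicle replicate 1 and NJT-2 replicate 2, and 9 with quality weights. Over the whole table these fits called 289, 482, and 727 genes. The labels do not say whether the replicate numbers pair the cultures. Same-numbered libraries had correlations of 0.179, 0.0325, and -0.207 between their deviations from the group means, and differently numbered libraries had -0.209 to 0.223. These values show no pairing and cannot exclude one. With the block, 57 genes of the table were called in place of 26. The number without overlap was 7 of 34 (20.6%, beside 25.9% of all tested genes) and ran from 7 to 16 when 1 library was left out. The number in FPKM was 13 without vehicle replicate 1 (38.2%, beside 35.3%), 16 without vehicle replicate 3 (47.1%, beside 50%), 13 without NJT-2 replicate 2 (38.2%, beside 47.3%), and 19 without both libraries that stood apart (55.9%, beside 63.9%).

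The median log2 fold change of the members, 0.08, was -0.04 when the limit on mean FPKM was 1, 0.22 and 0.26 in limma on log2(FPKM + 1) and log2(FPKM + 0.1), where the median of all genes was 0.14 and 0.17, -0.17 without both libraries, -0.08 with the length trend taken out, and -0.06 to 0.21 leaving out 1 library. Of the 18 members named with a fold change and its alternatives, 15 kept their direction in all. *Wnt9a* was -0.16 without NJT-2 replicate 2 (2.48 at most in such fits) and -0.34 without both libraries. *Fzd3* was -0.22 without both libraries and -0.09 with the length trend taken out. *Fosl1* was -1.36 without NJT-2 replicate 2 (3.51 at most in such fits), -1.93 without both, and -1.45 with quality weights. The causes were not tested. Where counts are near 0, as for most ligands, depth limits any statement.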
